A study of Mus musculus with 6 samples.

Results

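The small leucine-rich proteoglycans are secreted proteins of the dermal matrix, and 10 of their genes were followed here in the skin of LynDN transgenic and wild-type (WT) mice: Dcn, Bgn, Aspn, Lum, Fmod, Prelp, Kera, Omd, Ogn and Epyc. They were taken by gene symbol from the array annotation, which held all 10 among 18617 named genes, each with 1 probe. No ratio was selected on by that rule, but the family itself was proposed with ratios of these arrays already known, so the ratios below describe its members and are not offered as an independent test.

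Skin RNA of 3 LynDN mice was set against that of 3 WT mice on 2-colour arrays. LynDN is written LynDeltaN in the series title and is a transgenic form of Lyn, a tyrosine kinase of the Src family; the sources used here do not give the promoter that drives it, the age and strain of the mice or the skin site. LynDN mouse 1 was paired with WT mouse 1 (pair 1), LynDN mouse 2 with WT mouse 3 (pair 2) and LynDN mouse 3 with WT mouse 2 (pair 3), and the RNAs of each pair were run on 2 arrays of opposite dye orientation, 6 arrays in all. Each array gave a log2 ratio of its 2 channels per probe, where base 2 is assumed. No source names the numerator, so signs are given as deposited: a negative ratio is higher in WT if LynDN is the numerator and higher in LynDN if WT is. These mice are known for inflamed, psoriasis-like skin, which together with the strongly positive ratio of S100a9 (5.54) would put LynDN in the numerator, but no probe was named Lyn (0 probes) to settle it. Whole skin was measured, so fewer cells of a type and less RNA per cell cannot be told apart, and ratios carry no signal level, so whether a gene such as Kera or Epyc was above background in skin was not analysed here, nor could the labelled tissue be checked by the level of its markers.

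A small leucine-rich proteoglycan has a horseshoe-shaped core of leucine-rich repeats that binds fibrillar collagen and sets how fibrils grow and pack. Most members carry chondroitin, dermatan or keratan sulphate chains, and several also bind TGF-beta or cell-surface receptors. In skin, mice without decorin or lumican are known to have irregular collagen fibrils and fragile skin, and free biglycan is known as a ligand of Toll-like receptors.

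The 10 genes had no common direction. Ogn and Aspn were negative on 6 of 6 arrays, Prelp was positive on 6 of 6, and the other 7 genes had mixed signs. After averaging the arrays of a swap, 5 members (Ogn, Aspn, Omd, Epyc and Prelp) had a single sign in all 3 pairs, as 35.5% of all rows did. Over all 22879 rows tested, 4.31% were negative and 3.72% were positive on 6 of 6 arrays. The median of the 10 mean log2 ratios was -0.02 (6 negative, 4 positive), beside -0.01 for all named genes (10382 negative, 8235 positive). A 2-fold mean ratio was reached by 0 of 10 members. The median absolute mean ratio was 0.106 in the family, against 0.0670 over all named genes.

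In the limma test on the 3 pair values, adjusted by Benjamini-Hochberg over all rows, 0 of 10 members passed, where 0.0175% of all rows did. At an unadjusted p under 0.05 there were 3 members (Ogn, Prelp and Aspn), where 12.3% of all rows were. When all 6 arrays were fitted with a random term for the pair (the block), 1 member passed, Ogn on the negative side, where 0.459% of all rows passed negative, 0.603% positive and 1.06% in either direction. That fit treats dye swaps nearly as separate mice. Labels name the mice as separate animals, so the spread between pairs joins biological and technical differences.

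**Figure D1:**
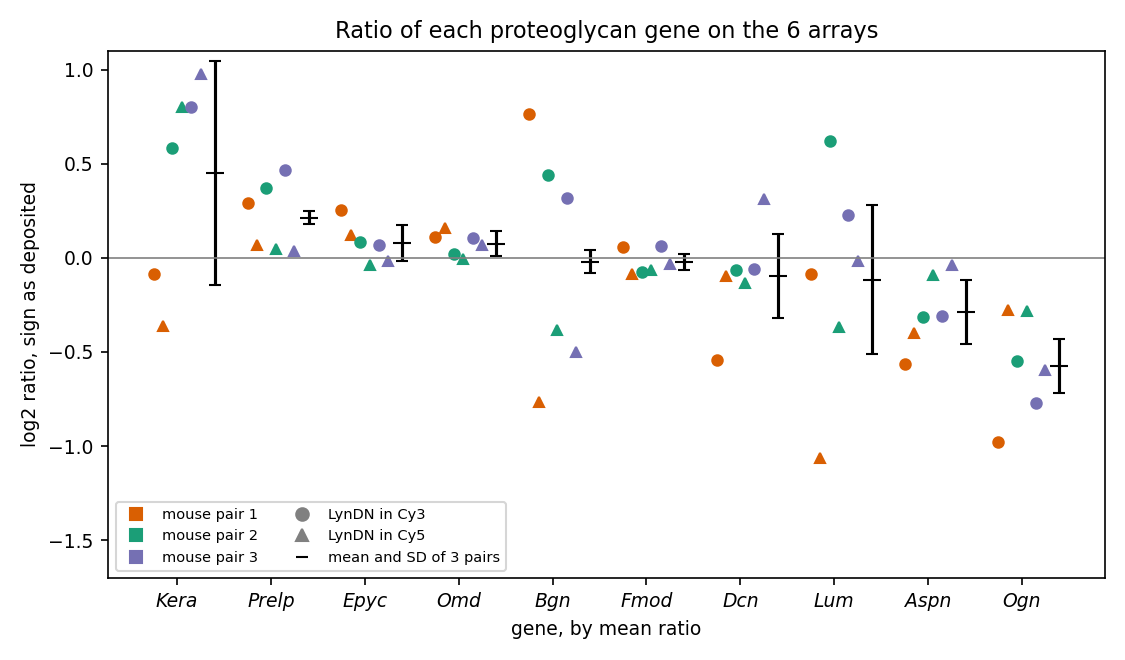
Log2 ratio (y axis, sign as deposited) of the 10 proteoglycan genes (x axis, ordered by mean) on each array, with colour for the mouse pair and shape for the dye of LynDN; black bars are the mean and SD of the 3 pair values. Ogn and Aspn lie below 0 and Prelp above 0 on every array, while Bgn lies between 0.319 and 0.765 with LynDN in Cy3 and between -0.764 and -0.384 with LynDN in Cy5.

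Ogn encodes osteoglycin, also called mimecan, a class III member found in the matrix of many connective tissues. With LynDN in Cy3 its log2 ratios were -0.98, -0.55 and -0.77 for pairs 1, 2 and 3, and with LynDN in Cy5 they were -0.28, -0.28 and -0.59. All 6 values were negative, and the 3 with LynDN in Cy3 lay farther from 0 than their swaps. The mean was -0.58 ± 0.14 (SD, n = 3 pairs), a 1.49-fold difference, and 0.457% of named genes had a lower mean. This was the member farthest from 0.

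Aspn encodes asporin, a class I protein with an aspartate-rich end that binds collagen and TGF-beta. Its ratios were -0.56, -0.32 and -0.31 with LynDN in Cy3 and -0.40, -0.09 and -0.04 with LynDN in Cy5, for pairs 1, 2 and 3. All were negative, with pair 1 lowest on both dye orientations. The mean was -0.29 ± 0.17 (SD, n = 3 pairs), a 1.22-fold difference, and 3.15% of named genes had a lower mean.

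Omd, which encodes osteoadherin, a keratan sulphate proteoglycan best known from mineralised tissue, is the neighbour of both on chromosome 13 and did not share their sign. Its ratios were 0.11, 0.02 and 0.10 with LynDN in Cy3 and 0.16, -0.00 and 0.07 with LynDN in Cy5. They stayed within 0.16 of 0, and 5 of 6 were positive. The mean was 0.08 ± 0.06 (SD, n = 3 pairs).

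The starts of these 3 neighbouring genes are shown because Aspn and Ogn shared a sign on every array and Omd, which lies between them, did not. Sequences run from 250 bases before to 50 bases after the start in RefSeq on GRCm38.p6, plus strand, 5′ to 3′, and cover chr13:49544193-49544492 for Aspn, chr13:49582212-49582511 for Omd and chr13:49607765-49608064 for Ogn. Capitals mark matches to TATAAA on either strand.
Aspn: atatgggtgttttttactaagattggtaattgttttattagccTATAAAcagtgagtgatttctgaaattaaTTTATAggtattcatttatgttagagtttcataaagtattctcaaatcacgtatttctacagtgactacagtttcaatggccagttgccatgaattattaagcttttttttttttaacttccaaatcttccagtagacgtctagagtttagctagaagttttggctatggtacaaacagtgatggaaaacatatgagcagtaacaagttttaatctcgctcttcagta
Omd: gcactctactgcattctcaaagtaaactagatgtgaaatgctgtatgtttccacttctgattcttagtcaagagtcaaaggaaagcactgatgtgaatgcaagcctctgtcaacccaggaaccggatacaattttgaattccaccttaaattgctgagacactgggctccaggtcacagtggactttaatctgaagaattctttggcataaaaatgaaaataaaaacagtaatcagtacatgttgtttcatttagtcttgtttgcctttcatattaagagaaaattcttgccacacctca
Ogn: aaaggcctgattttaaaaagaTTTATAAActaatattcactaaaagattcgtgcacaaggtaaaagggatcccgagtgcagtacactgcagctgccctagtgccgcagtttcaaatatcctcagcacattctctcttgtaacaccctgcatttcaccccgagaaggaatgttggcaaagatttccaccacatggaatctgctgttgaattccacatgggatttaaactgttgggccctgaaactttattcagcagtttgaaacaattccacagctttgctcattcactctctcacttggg

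TATAAA was found at 2 places in the Aspn window, at 207 and 178 bases upstream of the start, and at 2 overlapping places on opposite strands in the Ogn window, at 229 and 227 bases upstream. It was found at 0 places in the Omd window. On either strand, 13.6% of the 32851 RefSeq windows of this length held it. Of 4 further motifs searched on both strands, CANNTG had 2 matches in Aspn, 0 in Omd and 4 in Ogn (72.3% of windows), CCAAT had 1, 0 and 0 in that order (37.4%), and GGGCGG and TGANTCA had 0 in all 3 (35.7% and 7.81%). These matches describe letters only and do not show a bound site, and their relation to the signs of the 3 genes was not tested. Each percentage is the share of windows with at least 1 match.

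The other chromosomal neighbours were compared in the same way. RefSeq places Ecm2, Aspn, Omd and Ogn side by side on chromosome 13, Dcn, Lum, Kera and Epyc on chromosome 10, and Optc, Prelp and Fmod on chromosome 1, counting protein-coding genes, while Bgn lies apart on chromosome X. Ecm2, a leucine-rich matrix protein gene next to Aspn, had a mean of 0.40 ± 0.16 (SD, n = 3 pairs), opposite to Aspn, and was positive on 6 of 6 arrays. This mean joins 2 probes that disagree: the first averaged 0.80, with arrays from 0.39 to 1.06, and the second averaged 0.01, with arrays from -0.18 to 0.15. On chromosome 10, Kera lay above Lum and Epyc, on either side of it, in pairs 2 and 3, but between them in pair 1. On chromosome 1, Prelp had 0.21 and its neighbour Fmod -0.02.

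**Figure D2:**
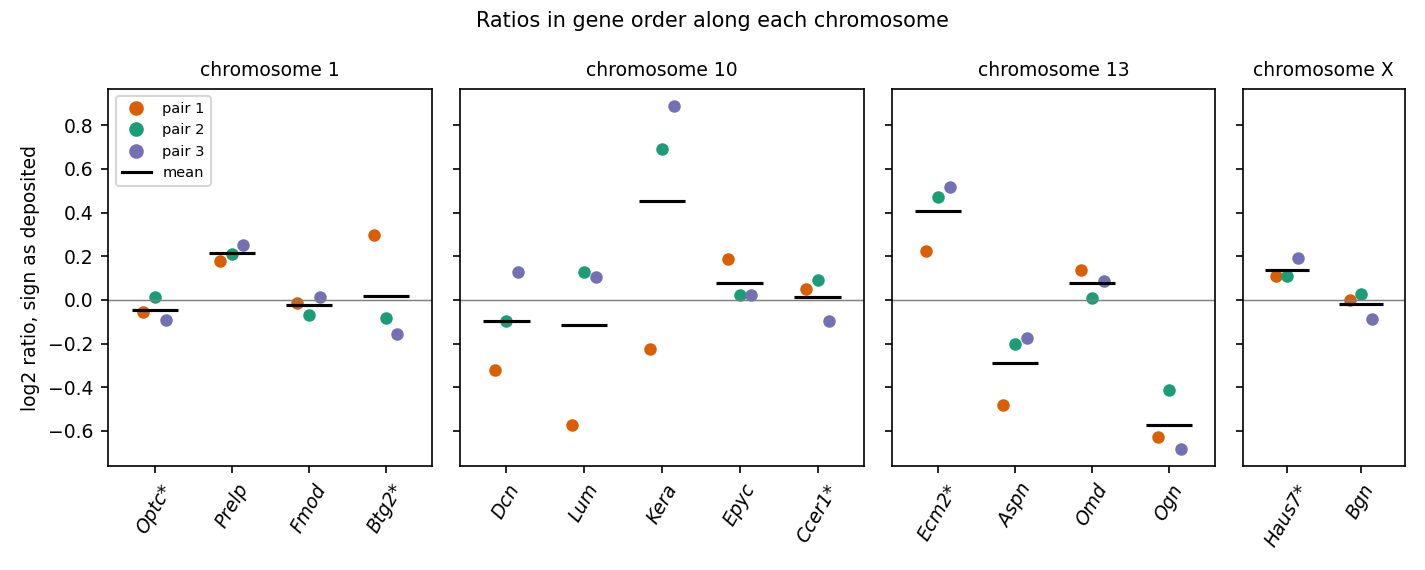
Log2 ratio in each mouse pair (points, y axis, sign as deposited) and mean (line) of the measured genes in their RefSeq order on 4 chromosomes (x axis); an asterisk marks a gene outside the 10. On chromosome 13, Aspn and Ogn lie below 0 in each pair, while Omd between them lies between 0.01 and 0.13.

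Kera encodes keratocan, a keratan sulphate proteoglycan best known from the cornea. With LynDN in Cy3 its ratios were -0.09, 0.58 and 0.80 for pairs 1, 2 and 3, and with LynDN in Cy5 they were -0.36, 0.80 and 0.97. Pairs 2 and 3 did not overlap with pair 1 on any array. The mean was 0.45 ± 0.59 (SD, n = 3 pairs), the highest of the family, and 2.08% of named genes had a higher mean. Of the 10 members Kera had the largest spread between pairs. Leaving out pair 1 removes the only pair in which Kera was negative and leaves 2 pairs. In that fit, where 4.88% of all rows passed, 2 members did, Kera with 0.79 and Ogn with -0.55. Leaving out pair 2 or pair 3 called 0 members, where 0.00874% and 0.0175% of all rows passed.

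Lum encodes lumican, a keratan sulphate proteoglycan of cornea and dermis. Its ratios for pairs 1, 2 and 3 were -0.09, 0.62 and 0.23 with LynDN in Cy3 and -1.06, -0.37 and -0.02 with LynDN in Cy5. Within every pair the array with LynDN in Cy3 was higher. After averaging, pair 1 was negative at -0.57 and pairs 2 and 3 were positive at 0.13 and 0.10, and the mean was -0.12 ± 0.40 (SD, n = 3 pairs).

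Dcn encodes decorin, the main dermatan sulphate proteoglycan of dermis. It had -0.54, -0.06 and -0.06 with LynDN in Cy3 and -0.10, -0.13 and 0.31 with LynDN in Cy5, for pairs 1, 2 and 3. Signs were mixed, and the mean of -0.10 ± 0.22 (SD, n = 3 pairs) had a 95% interval from -0.34 to 0.15 in the limma fit. Differences of up to about those sizes in either direction were not resolved.

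Pair 1 gave the lowest value of the 3 pairs for Dcn, Lum, Kera, Aspn and Prelp, and the highest for Epyc and Omd. The share of all rows with pair 1 at either end was not counted, so this is no trait of the family. The same pair differed in sex-linked genes. The Y-linked Eif2s3y lay at 3.50 there and at -0.00 and 0.03 in the other pairs, and Kdm5d, also Y-linked, lay at 1.24 and at -0.05 and 0.13. Xist, the RNA that silences an X chromosome in females, lay at -1.06 in pair 1 and at -0.09 and -0.14 in the others. Such ratios are those of a male set against a female, so genotype and sex cannot be told apart in pair 1. The dye-swap arrays of pair 1 also agreed less. Across the 10 members, genes that are not independent replicates, the arrays of a swap correlated at r = -0.03 in pair 1, 0.29 in pair 2 and 0.65 in pair 3. Across all rows these correlations were 0.02, 0.46 and 0.46. The part of sex and of array agreement in the ratios of pair 1 was not tested. Bgn, the X-linked member, had 0.00 in pair 1.

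Bgn encodes biglycan, a close relative of decorin. With LynDN in Cy3 its ratios were 0.76, 0.44 and 0.32 in pairs 1, 2 and 3, and with LynDN in Cy5 they were -0.76, -0.38 and -0.50. The 2 dye orientations did not overlap and lay at nearly mirrored distances from 0. Averaging each swap left 0.00, 0.03 and -0.09, with a mean of -0.02 ± 0.06 (SD, n = 3 pairs) and a 95% interval from -0.16 to 0.12. The SD over pairs leaves out the difference between the arrays of a swap.

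The dye difference was tested with limma over all rows, as the term for dye orientation in the fit with the pair as a block. Genes were taken by symbol and not by this term. The family was still proposed with ratios of these same arrays already known. Of the 10 members 1 passed, where 2.56% of all rows did: Bgn, at 1.06 on the log2 scale for LynDN in Cy3 minus LynDN in Cy5 (adjusted p = 0.0210), with that sign in 3 of 3 pairs. The difference was 0.74 for Lum (adjusted p = 0.148), 0.32 for Prelp (adjusted p = 0.0843) and -0.38 for Ogn (adjusted p = 0.156). For Bgn, Lum, Fmod and Dcn, 4 of the 10, the dye orientations lay farther from their midpoint than the midpoint, which is the mean ratio, lay from 0. The share of all genes for which this holds was not counted. Over all named genes the median distance from that midpoint was 0.0763, beside a median absolute mean ratio of 0.0670. In the family these medians were 0.117 and 0.106. For Kera and Omd the dye difference was -0.04 and 0.00.

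**Figure D3:**
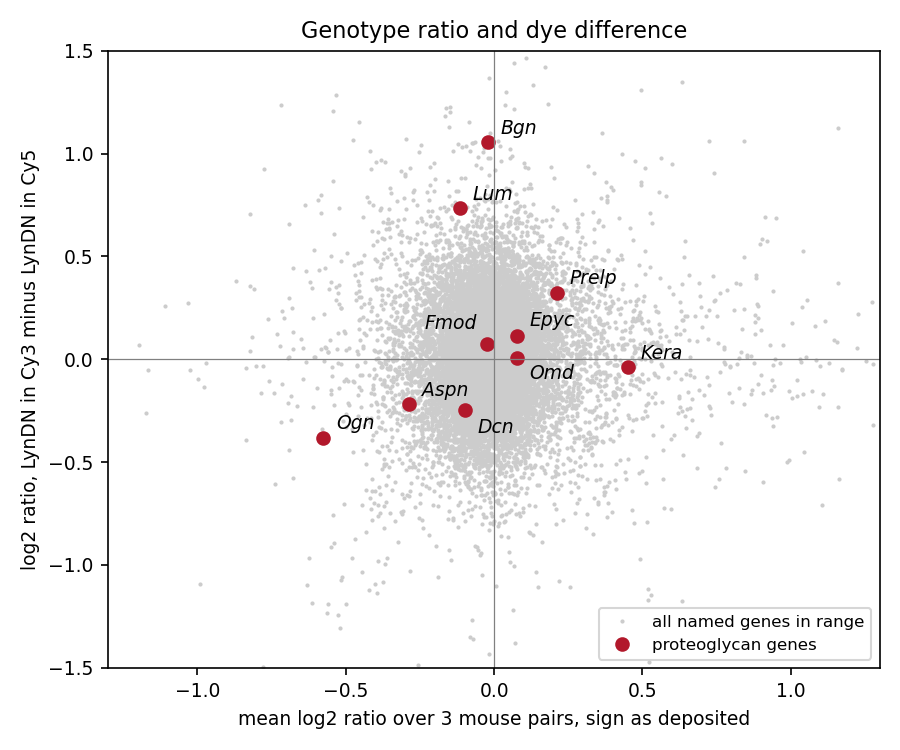
Mean log2 ratio over the 3 mouse pairs (x axis, sign as deposited) against the log2 difference between the 2 dye orientations (y axis) for the 10 proteoglycan genes (red) and all named genes (grey; 104 lie outside the axes). Bgn sits near 0 on the x axis and at 1.06 on the y axis, whereas Kera sits at 0.45 and -0.04.

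Prelp encodes a protein that anchors basement membranes to connective tissue. Its ratios were 0.29, 0.37 and 0.47 for pairs 1, 2 and 3 with LynDN in Cy3 and 0.07, 0.05 and 0.03 with LynDN in Cy5. All 6 were positive, yet those with LynDN in Cy5 stayed close to 0. The mean was 0.21 ± 0.04 (SD, n = 3 pairs), a 1.16-fold difference, and its small SD again leaves out the gap between dye orientations.

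Fmod, which encodes fibromodulin, a collagen-binding keratan sulphate proteoglycan prominent in tendon, lay between -0.09 and 0.06 on the 6 arrays. Its mean of -0.02 ± 0.04 (SD, n = 3 pairs) had a 95% interval from -0.15 to 0.11. Epyc, which encodes epiphycan of growth plate cartilage, lay between -0.04 and 0.26, with its 2 highest values in pair 1, and averaged 0.08 ± 0.09 (SD, n = 3 pairs). By structural class, all 3 members of class I (Dcn, Bgn and Aspn) had negative means, from -0.29 to -0.02. Over all named genes, 10382 of 18617 means were negative. In class II (Lum, Fmod, Prelp, Kera and Omd) 3 of 5 were positive, and in class III Ogn was negative and Epyc positive. From lowest to highest mean the order was Ogn, Aspn, Lum, Dcn, Fmod, Bgn, Omd, Epyc, Prelp and Kera, and the means from Lum to Epyc lay closer to each other than the SD of Lum.

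Relatives outside the 10 were measured for 7 of 8 genes, with a median of 0.04 and 0 called on the pair values or with the block. Of all rows, 0.0175% passed on the pair values and 1.06% with the block. Besides Ecm2, Podn (podocan) had 0.16 ± 0.09, Nyx (nyctalopin) -0.12 ± 0.14, Optc (opticin) -0.05 ± 0.05, Chad (chondroadherin) 0.04 ± 0.05, Podnl1 0.04 ± 0.07 and Chadl 0.02 ± 0.10 (SD, n = 3 pairs each).

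The genes whose 6 array ratios lay closest to those of Ogn, by root mean square difference in log2 over the 6 arrays, were Ccn3 (0.0960), Pdgfrl (0.170), Mboat2 (0.170), Fkbp7 (0.175) and Ppfia4 (0.195). The closest other member of the family, Aspn, was at 0.365, and Omd at 0.704. Ccn3, a matricellular protein gene, had a mean of -0.51 ± 0.09 (SD, n = 3 pairs), and Mboat2, an acyltransferase gene, had -0.61 ± 0.27. Pdgfrl, a gene related to PDGF receptors, had -0.46 ± 0.14, Fkbp7, a peptidyl-prolyl isomerase gene of the endoplasmic reticulum, had -0.44 ± 0.24, and Ppfia4 had -0.48 ± 0.16. These genes were selected for likeness, share arrays and dyes with Ogn, and are named with no test.

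**Figure D4:**
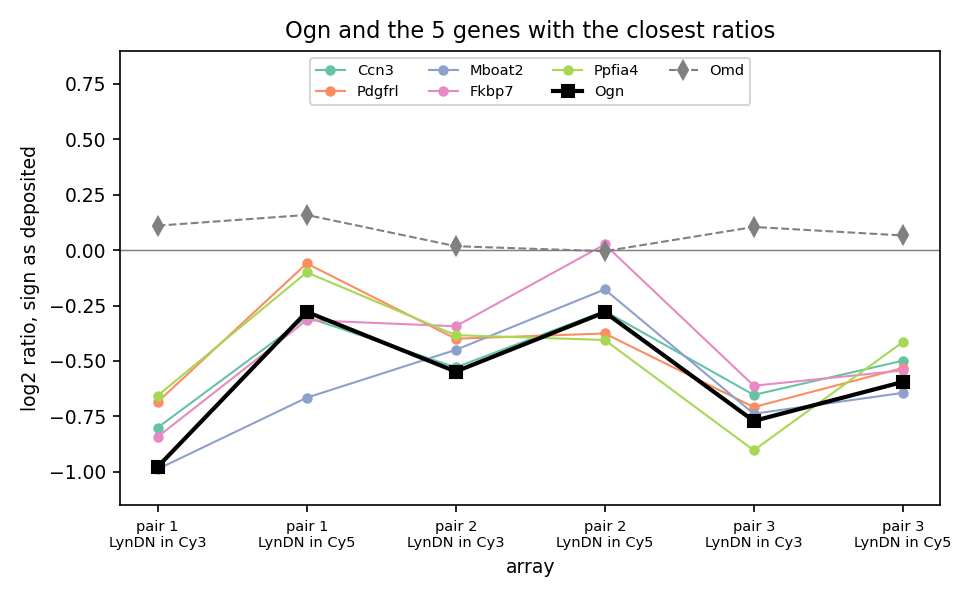
Log2 ratio (y axis, sign as deposited) of Ogn, of the 5 genes closest to it and of Omd on the 6 arrays (x axis). Ogn and Ccn3 follow each other within a root mean square difference of 0.0960, while Omd stays near 0.

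Partners of the family were followed in 10 lists, 131 genes in all outside the 10. On the pair values 0 of 131 passed in limma, where 0.0175% of all rows did, and 28 had an unadjusted p under 0.05, where 12.3% of all rows did. With the block 1 passed, Serpinh1, where 1.06% of all rows did. Serpinh1, the collagen chaperone of the endoplasmic reticulum, had -0.59 ± 0.23 (SD, n = 3 pairs; adjusted p = 0.0267 with the block, 0.247 on the pair values) and was negative on 6 of 6 arrays.

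Collagens that these proteoglycans bind were negative in 8 of 12 genes, with a median of -0.16 (-0.06, -0.11 and -0.26 in pairs 1, 2 and 3). Of all 18617 named genes, 10382 were negative. Col5a1, which nucleates fibrils, had -0.35 ± 0.10, and Col3a1, a main fibril collagen of skin, had -0.23 ± 0.09 (SD, n = 3 pairs each). Arrays of Col5a1 ran from -0.67 to 0.15 and those of Col3a1 from -0.38 to -0.05. Of 16 collagen processing and cross-linking genes 12 were negative, with a median of -0.08. Beside Serpinh1, P4ha1, a subunit of prolyl 4-hydroxylase, had -0.32 ± 0.13.

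List medians of genes for sugar chain synthesis, and of genes for hyaluronan synthesis and breakdown, lay near 0. Dermatan and chondroitin sulphate synthesis genes (21) had a median of -0.04, with Chst14, a dermatan 4-O-sulphotransferase gene, at -0.18 ± 0.06 and negative on 6 of 6 arrays, and Csgalnact1 at -0.23 ± 0.26. Keratan sulphate synthesis genes (10) had a median of 0.03 and means from -0.34 to 0.23, with B4galt1 at 0.20 ± 0.04 and B3gnt2 at 0.23 ± 0.19. Arrays of B4galt1 ran from -0.09 to 0.54 and those of B3gnt2 from -0.42 to 0.95, which the SD over pairs leaves out. Hyaluronan genes (8) had a median of 0.06 and means from -0.09 to 0.40, with Tnfaip6 at 0.21 ± 0.26 and the synthase gene Has3 at 0.18 ± 0.28 (SD, n = 3 pairs throughout). None of the members of these 3 lists passed with the block or on the pair values.

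Ligands, receptors and proteases linked to the family were mixed, again with none called by either fit. TGF-beta ligands and receptors (14) had a median of -0.02, with 5 means positive and 9 negative, from -0.18 to 0.46. Of these, Tgfb2 had -0.18 ± 0.13 and Ltbp3 -0.18 ± 0.15. Receptors bound by decorin or biglycan (9) had a median of 0.01, and the biglycan receptor gene Tlr2 had 0.32 ± 0.14 with 6 of 6 arrays positive, while Met, a decorin receptor gene, had 0.23 ± 0.15. Proteases that cleave the family (12) had a median of -0.04, with Adamts1 at 0.25 ± 0.13 and the gelatinase gene Mmp9 at 0.79 ± 0.74, where the pair values were -0.05, 1.36 and 1.07. Other proteoglycans (22) had a median of 0.01, with the glypican gene Gpc3 at -0.37 ± 0.18 and the keratinocyte syndecan gene Sdc1 at 0.38 ± 0.21 (SD, n = 3 pairs throughout). Gpc3 and Sdc1 both passed the limma test of the dye term (adjusted p = 0.0268 and 0.0414), where 2.56% of all rows did. How many other genes of the lists passed it was not counted.

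Markers of cell types that skin RNA can hold were followed in 9 lists, with 0 genes called on the pair values. Of all 18617 named genes, 10382 had negative and 8235 positive means. Fibroblast markers were negative in 7 of 12 genes (median -0.10; -0.21, -0.02 and -0.27 in pairs 1, 2 and 3), with Fap at -0.38 ± 0.10 and Cd34 at -0.45 ± 0.17, both negative on 6 of 6 arrays. The other 5 fibroblast markers were positive, the highest at 0.28. Of the 12, Fap passed with the block (adjusted p = 0.0267, where 0.459% of all rows passed negative) but not on the pair values (adjusted p = 0.237). Skeletal muscle markers were negative in 6 of 6 (median -0.43; -0.02, -0.60 and -0.73 by pair), with Myh4 at -1.20 ± 1.05 and Actn3 at -0.62 ± 0.33. Basal keratinocyte markers were positive in 6 of 6 (median 0.41; 0.23, 0.57 and 0.48), with Krt14 at 1.34 ± 0.54 and Trp63 at 0.32 ± 0.03, and 2 passed with the block, Krt14 and Itgb4, where 0.603% of all rows passed positive, but 0 of the 6 on the pair values (adjusted p = 0.237 for Krt14). Arrays of Trp63 ran from 0.02 to 0.65. Macrophage markers were positive in 5 of 5 (median 0.41; -0.04, 0.48 and 0.84), with Fcgr3 at 0.65 ± 0.62 and Cd163 at 0.41 ± 0.39. The part of these markers in the ratios of Ogn, Aspn and Kera was not tested.

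In the remaining marker lists 0 genes were called by either fit. Medians were -0.13 for 6 adipocyte genes (Fabp4 -0.30 ± 0.36, Cidec 0.15 ± 0.15), -0.08 for 6 dermal papilla genes (Sostdc1 -0.42 ± 0.21, Fgf7 -0.15 ± 0.18) and -0.06 for 4 chondrocyte and bone genes (Acan -0.14 ± 0.08, Col2a1 -0.05 ± 0.08). They were -0.02 for 6 endothelial genes (Cdh5 0.12 ± 0.04, Esam -0.08 ± 0.09) and -0.01 for 6 pericyte and smooth muscle genes (Myh11 0.18 ± 0.14, Acta2 -0.07 ± 0.12; SD, n = 3 pairs throughout). Arrays of Cdh5 ran from -0.19 to 0.37.

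**Figure D5:**
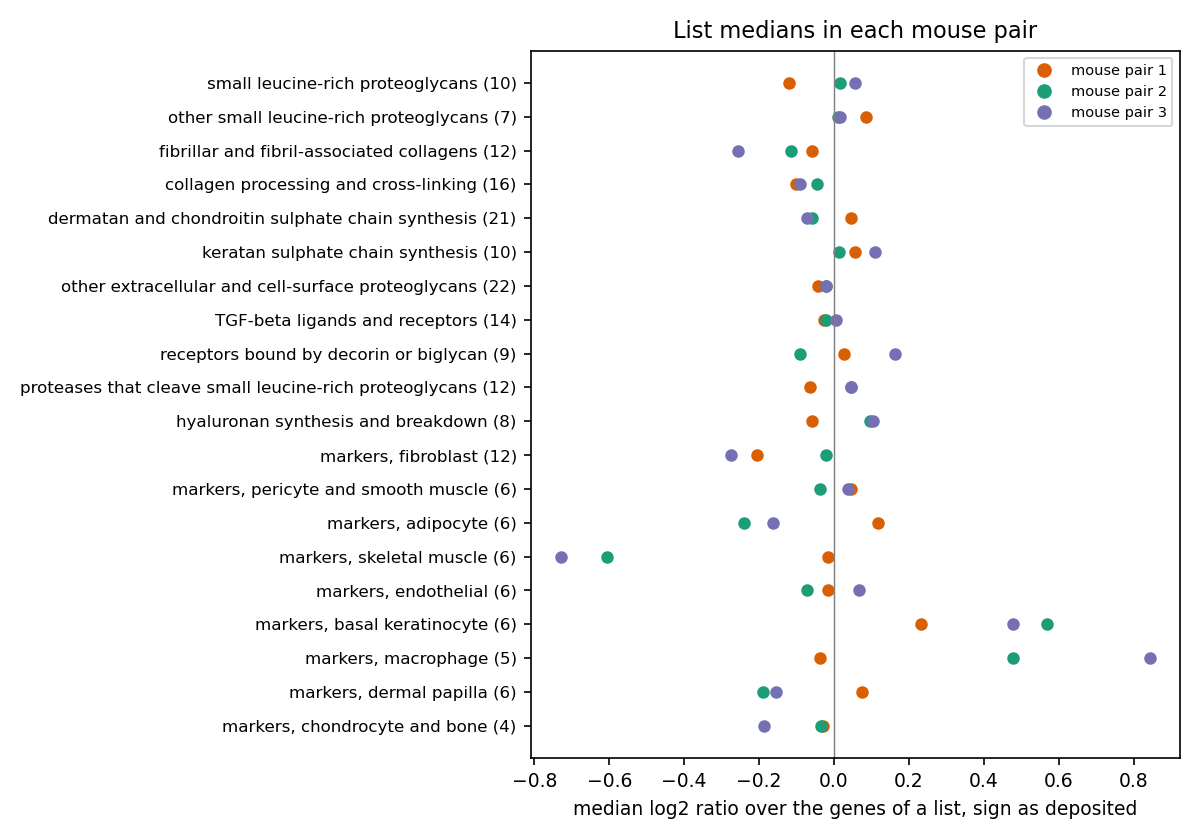
Median log2 ratio (x axis, sign as deposited) over the genes of each list (y axis, with the number measured) in the 3 mouse pairs (points). The small leucine-rich proteoglycans lie at -0.12, 0.02 and 0.05, while skeletal muscle and macrophage markers differ most between pair 1 and the other pairs.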

How the data were processed

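Total RNA of skin was extracted with Qiagen reagents and labelled with Ambion reagents, per the labels' protocols. The deposited values are log2 ratios of the 2 channels, 1 per probe and array, for 25344 probes, where base 2 is assumed. The sources used here do not give the authors' background correction, normalization or numerator. Array medians lay between -0.02 and 0.00.

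Probes were named through the platform annotation: 21082 had 1 symbol, 30 several and 4232 none. Of those with 1 symbol, 20456 matched a RefSeq gene of GRCm38.p6 by Entrez identifier, and 0 symbols changed. Probes were averaged per symbol, which gave 22879 rows, and the 2 arrays of a dye swap were averaged per mouse pair, since both hold the same 2 mice per the labels. The 3 pair values were set against 0 in a two-sided moderated test (limma 3.58.1, R 4.3.3; lmFit, eBayes), with Benjamini-Hochberg adjustment over all rows and a threshold of 0.05. The alternative with a replicate block took 6 arrays, a dye term and the pair as a random block (consensus correlation 0.151). Both fits were tested on simulated data. The number of mouse pairs and arrays limits precision; spot signals were not used here. Each SD over pairs leaves out the difference between the 2 arrays of a swap. Figures were drawn with matplotlib 3.10.9.

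The members and gene lists were chosen with earlier results of these data known. Named genes were all members, all measured relatives, the 2 genes of each other list with the smallest p, the 5 genes closest to the member farthest from 0, 3 sex-linked genes, and chromosomal neighbours. S100a9 and Itgb4 were named after their values were seen.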

Additional observations from a re-analysis of the deposited data

How the results depend on the processing

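The number of rows called changed with the treatment of pairs, dyes and scaling. It was 4 on the pair values (4 positive, 0 negative), 243 with the replicate block (138 positive, 105 negative), 79 after quantile normalization (59 positive, 20 negative), 54 with LynDN in Cy3 alone, 24 with LynDN in Cy5 alone, 0 without variance moderation, and between 2 and 1117 when a mouse pair was left out. Members called were 0 on the pair values, 1 with the replicate block (Ogn) and between 0 and 2 with a pair left out, the 2 being Kera and Ogn without pair 1. Partner genes called were 0 of 131, then 1 with the block (Serpinh1), and between 0 and 9 with a pair left out, the 9 without pair 1. Of all rows, 1.06% passed with the block and 4.88% without pair 1. The cause of these changes was not tested. The family's median was 0.11 with LynDN in Cy3 alone, against -0.02 over both dyes, and lay between -0.02 and 0.02 with a pair left out. Over 11 alternatives, Ogn stayed between -0.77 and -0.38, Aspn between -0.40 and -0.18, Prelp between 0.05 and 0.37 and Kera between 0.23 and 0.79. Not all of these could move a mean. The block, the fit without variance moderation and the fit with every probe as a row leave the member means unchanged by construction. Centring arrays on their median shifts all members alike. The sign of Bgn turned in 4 of the 11 alternatives (from -0.55 to 0.51), that of Lum in 3 and those of Dcn and Fmod in 2 each. Without the array whose label carries its own date, 4 rows and 0 members were called. With only ratios to hand, signal over background limits what can be said of dim genes.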

Other observations

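Of the other members with a RefSeq start window, Kera held 3 matches to CCAAT and Bgn held 3 to GGGCGG. At least 1 match was present in 37.4% and 35.7% of all windows, and the share with 3 was not counted. For CCAAT, Fmod and Prelp held 1 match each, and Bgn and Epyc 0. Btg2, next to Fmod on chromosome 1, had log2 ratios of 0.30, -0.08 and -0.16 by pair. Haus7, next to Bgn on chromosome X, had a mean of 0.14 ± 0.05, and Ccer1, next to Epyc on chromosome 10, had 0.01 ± 0.10 (SD, n = 3 pairs each).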
